A study of Mus musculus with 4 samples.

Results

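S100 proteins, annexins and galectins are protein families with several members whose transcripts are more abundant in effector and memory T cells than in naive T cells. The 10 genes described here are S100a4, S100a6, S100a10, S100a11, Anxa1, Anxa2, Anxa5, Anxa6, Lgals1 and Lgals3, chosen by gene symbol as family members associated with effector and memory T cells. All 10 had a row in both deposited tables, of 10663 named genes for DSS and 23259 for the vectors. All 10 also had a mean of at least 1 FPKM over the libraries of each experiment, the filter used in the counts below unless stated otherwise.

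The 4 mouse libraries came from 2 experiments with 1 library per group. In the first, hCD2-positive cells were purified as regulatory T cells (Treg) from the spleen of Balb/c Foxp3-hCD2 reporter mice. One library came from DSS Treg, of mice that drank 3% dextran sulfate sodium (DSS), a polymer that injures the colon, for 7 days, and one from untreated Treg. In the second, naive CD4 T cells from C57BL6 mice of wild-type genotype received a Sox12 vector, named for the transcription factor gene Sox12, or a mock vector. Both transduced groups thus carried a vector, and both Treg groups the reporter. The sources used here do not give the number of animals behind a library or the days in culture.

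S100 proteins are calcium sensors with EF-hand loops that pair up and dock onto partner proteins when calcium enters the cell. Annexins bind the phospholipids of membranes in the presence of calcium, and some of them are held together by an S100 pair: S100A10, which has lost calcium binding, joins annexin A2 in a heterotetramer, and S100A11 binds annexin A1. Galectins bind beta-galactosides on surface glycoproteins, are released without a signal peptide, and crosslink receptors such as CD45 and CD43 on T cells.

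The tables hold FPKM, the fragments of a gene scaled to transcript length and library size, so levels can be compared between genes of a library. A change below is the difference of log2(FPKM + 1), DSS minus untreated Treg or Sox12 minus mock vector, a scale on which genes of low level appear to change less than they do, and a ratio is that of the FPKM themselves. Each group has 1 library, so there is no replicate error and no test, and differences are described by their size only. A gene is said to pass the size rule when its change is at least 1 in either direction, which is 2 times on that scale. In bulk RNA, fewer cells of a type and less RNA per cell cannot be told apart.

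Depth could be read only in the vector table, where 1 FPKM stood for about 44.9 fragments per kb in the Sox12 library and 42.9 in the mock library. By the longest coding transcript of each gene the members rested on 327 to 37094 fragments in the Sox12 library and 468 to 34699 in the mock library, lowest in Anxa1 and highest in Lgals1. Intervals below are 95% intervals of a ratio from these estimated counts, and they cover counting error only. The labels were checked first: Sox12 had 829 FPKM with the Sox12 vector and 1.56 FPKM with the mock vector. Foxp3 had 84.9 FPKM in DSS Treg and 88.2 FPKM in untreated Treg, and 127 FPKM with the Sox12 vector and 20.9 FPKM with the mock vector. The 7 T cell markers checked, among them Cd3e and Cd4, were present in every library, with sums of 2111 FPKM in DSS Treg and 2143 FPKM in untreated Treg, and of 1399 FPKM with the Sox12 vector and 1971 FPKM with the mock vector.

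The bases before the gene start are shown for the member of each family with the largest change in the vector experiment, S100a4, Anxa2 and Lgals3, so that their upstream bases can be read beside the values below. Promoters of 7 of the 10 members were matched in the RefSeq table of build GRCm38.p6, which is a later build than the authors' mm9; S100a10, Anxa6 and Lgals1 had no entry. Each sequence below runs 5′ to 3′ on the plus strand and holds the 250 bases before the start: S100a4 at chr3:90603520-90603769, Anxa2 at chr9:69453433-69453682 and Lgals3 at chr14:47373610-47373859. Capitals mark matches to 3 motifs on either strand: the core bound by SOX factors (AACAAT), the AP-1 site (TGANTCA) and the GC box (GGGCGG), whose matches did not overlap each other in these windows.
S100a4: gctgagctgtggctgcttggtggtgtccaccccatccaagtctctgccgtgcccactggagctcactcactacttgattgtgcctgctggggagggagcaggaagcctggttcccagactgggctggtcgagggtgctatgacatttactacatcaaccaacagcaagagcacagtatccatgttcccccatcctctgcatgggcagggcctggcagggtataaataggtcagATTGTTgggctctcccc
Anxa2: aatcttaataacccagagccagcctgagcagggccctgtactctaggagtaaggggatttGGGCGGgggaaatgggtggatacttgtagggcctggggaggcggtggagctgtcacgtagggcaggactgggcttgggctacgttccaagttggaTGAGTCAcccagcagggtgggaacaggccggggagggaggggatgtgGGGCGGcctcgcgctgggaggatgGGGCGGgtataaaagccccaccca
Lgals3: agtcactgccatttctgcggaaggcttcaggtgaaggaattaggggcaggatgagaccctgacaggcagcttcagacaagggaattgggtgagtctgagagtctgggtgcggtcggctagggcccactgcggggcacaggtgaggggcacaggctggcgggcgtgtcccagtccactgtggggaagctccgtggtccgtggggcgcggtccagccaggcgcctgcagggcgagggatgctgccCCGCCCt

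The SOX core was present in 1 of the 7 member windows, that of S100a4, as the reverse complement ATTGTT with its first base at -17 from the start. Of all 32851 windows of that length 9.42% held it. The AP-1 letters were in 2 of 7 member windows, Anxa2 (first base at -95) and S100a11, against 6.75% of all windows. The GC box was in 3 of 7, Anxa2, Lgals3 and S100a11, against 32.7% of all. Anxa2 held 3 GC boxes and Lgals3 held 1, read on the opposite strand at -7. A match to a few letters describes the sequence and does not show that a factor binds there.

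Among the S100 genes, S100a10 was by far the most abundant in all 4 libraries. In splenic Treg it had 414 FPKM in DSS Treg and 387 FPKM in untreated Treg, places 83 and 90 from the top of the DSS table. S100a11 had 128 FPKM in DSS Treg and 123 FPKM in untreated Treg. Both were thus slightly higher in the DSS library, with changes of 0.10 and 0.06 that lay close to the middle of all genes at 0.05.

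S100a4, or metastasin, binds the heavy chain of non-muscle myosin IIA and is expressed in memory T cells. It had 133 FPKM in DSS Treg and 157 FPKM in untreated Treg, a ratio of 0.845 and a change of -0.24. Of all genes 3.58% had a lower change. S100a6, or calcyclin, which binds the calcyclin-binding protein Cacybp, had 35.4 FPKM in DSS Treg and 38.8 FPKM in untreated Treg, a change of -0.13. The annexin partners S100a10 and S100a11 were thus a little higher in the DSS library and S100a4 and S100a6 lower, but the change of S100a11 was 0.0091 with the median of all genes set to 0.

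In transduced CD4 T cells all 4 S100 members were higher with the Sox12 vector, and the change was larger in the 2 less abundant ones. S100a4 had 39.6 FPKM with the Sox12 vector and 26.3 FPKM with the mock vector, a ratio of 1.51 (1.36 to 1.67) and a change of 0.57. S100a6 had 22.4 FPKM with the Sox12 vector and 16.9 FPKM with the mock vector, a ratio of 1.32 (1.19 to 1.48) and a change of 0.39. S100a4 and S100a6 were also the S100 members that were lower in DSS Treg.

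S100a11 had 298 FPKM with the Sox12 vector and 268 FPKM with the mock vector, a ratio of 1.11 and a change of 0.16. S100a10 had 764 FPKM with the Sox12 vector and 720 FPKM with the mock vector, a ratio of 1.06 (1.04 to 1.08) and a change of 0.09. How far 2 preparations of the same cells differ is not known here, so a change of this size cannot be judged. S100a10 exceeded S100a4 by 19.3 times with the Sox12 vector and by 27.4 times with the mock vector, while in Treg the excess was 3.12 times in the DSS library and 2.46 times in the untreated library. The tables were normalized separately, so these are ratios within a library.

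**Figure D1:**
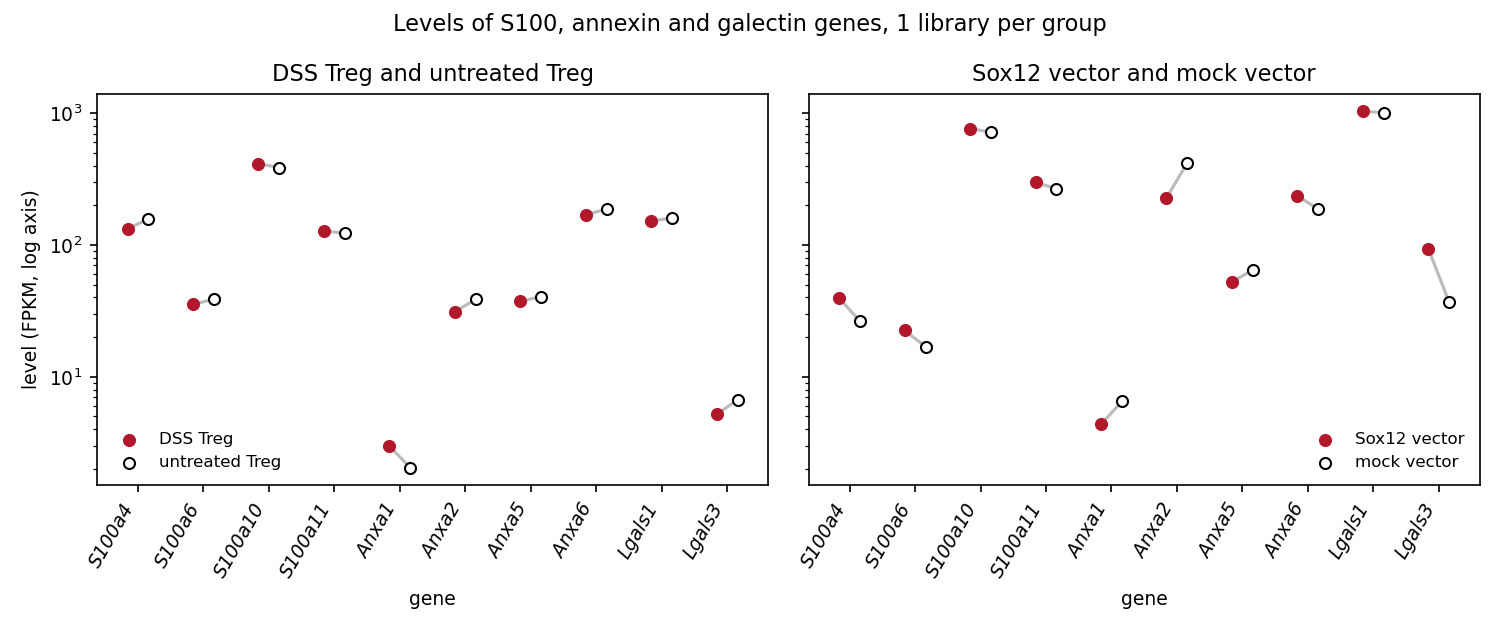
Level of each of the 10 genes in FPKM on a log axis, as 1 point per library, with DSS Treg (filled) and untreated Treg (open) in the left panel and Sox12 vector (filled) and mock vector (open) in the right panel. In Treg most pairs lie nearly level, while with the vectors Lgals3 (93.9 FPKM with the Sox12 vector and 36.7 FPKM with the mock vector) and Anxa2 (227 FPKM with the Sox12 vector and 422 FPKM with the mock vector) stand out in opposite directions.

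The annexins were more divided. Annexin A1, a ligand of formyl peptide receptors that limits inflammation and is induced by glucocorticoids, was the rarest of the 10 genes in every library. It had 2.97 FPKM in DSS Treg and 2.04 FPKM in untreated Treg, a ratio of 1.45 and a change of 0.38, and 97.1% of all genes had a lower change. The change was 0.52 with a pseudocount of 0.1 and 0.18 with a pseudocount of 5. It was the member with the highest change in that experiment, and also the one with the lowest level. With the vectors the order was the other way round, with 4.35 FPKM with the Sox12 vector and 6.51 FPKM with the mock vector, a ratio of 0.669 (0.581 to 0.770) and a change of -0.49, or -0.30 with a pseudocount of 5.

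Annexin A2, which tethers actin to membranes and together with S100A10 binds plasminogen and tissue plasminogen activator at the cell surface, was lower in DSS Treg and with the Sox12 vector. It had 31.1 FPKM in DSS Treg and 38.8 FPKM in untreated Treg, a ratio of 0.802 and a change of -0.31, and 2.01% of all genes had a lower change. It had 227 FPKM with the Sox12 vector and 422 FPKM with the mock vector, a ratio of 0.537 (0.526 to 0.548) and a change of -0.89, and 2.45% of all genes had a lower change. This was the lowest change of the 10 genes in the vector experiment and fell short of the size rule.

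Its partner S100a10 was slightly higher in both cases, so the ratio of the 2 transcripts differed more than either gene. S100a10 exceeded Anxa2 by 13.3 times in DSS Treg and 9.97 times in untreated Treg, and by 3.37 times with the Sox12 vector and 1.71 times with the mock vector. The ratio was thus 1.33 times higher in the DSS library and 1.98 times higher in the Sox12 library than in the library it was compared with. These ratios are taken within a library and do not depend on how the libraries were scaled.

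Annexin A5, known as the reagent that stains phosphatidylserine on dying cells, had 37.3 FPKM in DSS Treg and 40.7 FPKM in untreated Treg, a change of -0.12. It had 52.3 FPKM with the Sox12 vector and 64.9 FPKM with the mock vector, a ratio of 0.805 (0.773 to 0.840) and a change of -0.31. Annexin A6, the largest annexin, whose core is doubled and which acts in endocytosis and cholesterol handling, was the most abundant annexin of the Treg libraries, with 169 FPKM in DSS Treg and 188 FPKM in untreated Treg, a change of -0.15. With the Sox12 vector it had 236 FPKM and with the mock vector 187 FPKM, a ratio of 1.27 (1.24 to 1.29) and a change of 0.34. Anxa6 and Anxa2 thus changed places, with Anxa6 at 1.04 times the level of Anxa2 with the Sox12 vector and 0.442 times with the mock vector. Among the 4 annexins Anxa6 alone was higher with the Sox12 vector.

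Galectin-1 is a small, abundant galectin that Treg use in suppression and that can trigger death of activated T cells. Lgals1 had 151 FPKM in DSS Treg and 161 FPKM in untreated Treg, a ratio of 0.942 and a change of -0.09. In transduced cells it was the most abundant of the 10 genes, with 1033 FPKM with the Sox12 vector and 1011 FPKM with the mock vector, places 30 and 39 from the top of the vector table. The ratio was 1.02 and the change 0.03, which turned to -0.0012 when the 75th percentiles of the libraries were made equal, so its direction depends on the scaling.

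Galectin-3 differs from galectin-1 in a long repetitive tail through which it forms lattices on glycoproteins, where it restrains T cell receptor clustering. Lgals3 was low in Treg, with 5.19 FPKM in DSS Treg and 6.70 FPKM in untreated Treg, a ratio of 0.774 and a change of -0.32, the lowest of the 10 genes there. It had 93.9 FPKM with the Sox12 vector and 36.7 FPKM with the mock vector, a ratio of 2.56 (2.44 to 2.69) and a change of 1.33, the highest of the 10 genes. It was the 1 member past the size rule, and 97.0% of all genes had a lower change. Lgals1 exceeded Lgals3 by 11.01 times with the Sox12 vector and 27.5 times with the mock vector, and by 29.2 times in DSS Treg and 24.0 times in untreated Treg.

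Counted together, 3 of the 10 genes were higher in DSS Treg (S100a10, S100a11 and Anxa1) and 7 were lower. Of all 10545 genes past the filter 66.1% were higher and 33.9% lower, so the members leaned the other way from the bulk of genes. Their median change was -0.12, against 0.05 for all genes. Of the 7 T cell markers 3 were higher and 4 lower, or 1 and 6 with the median of all genes set to 0. Of 5 Treg markers 2 were higher and 3 lower, so a lean away from the bulk was not particular to the members. None of the 10 reached 2 times on the log2(FPKM + 1) scale, where 0.190% of all genes were higher and 0.0759% lower, and none reached 1.5 times, where 0.872% were higher and 0.446% lower. Anxa1 lay above the 95th percentile of all changes (0.31), and S100a4, Anxa2 and Lgals3 below the 5th (-0.20).

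In the vector experiment 7 of the 10 were higher and 3 lower (Anxa1, Anxa2 and Anxa5), where 48.9% of all 10822 genes past the filter were higher and 51.1% lower. With the 75th percentiles made equal the counts were 6 and 4. The median change was 0.12, against -0.01 for all genes. At 2 times, 1 member was higher and 0 lower, against 4.85% and 1.91% of all genes. At 1.5 times, a change of 0.58, 1 was higher (Lgals3) and 1 lower (Anxa2), against 10.1% and 6.88%, and S100a4 lay just short of it. S100a4 passed it with a pseudocount of 0.1 (0.59) and with totals made equal without the 20 highest genes (0.63), which makes 2 higher. These shares of the members are near the background. The summed level of the 10 genes was 2771 FPKM with the Sox12 vector and 2758 FPKM with the mock vector, so the members differed in their mixture more than in their total. Lgals1 and S100a10, which differed little between the vectors, held most of both sums, so the total says little about the other members. The 4 S100 genes summed to 1124 FPKM with the Sox12 vector and 1030 FPKM with the mock vector. The 4 annexins summed to 519 FPKM with the Sox12 vector and 680 FPKM with the mock vector, and the 2 galectins to 1127 FPKM with the Sox12 vector and 1047 FPKM with the mock vector.

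**Figure D2:**
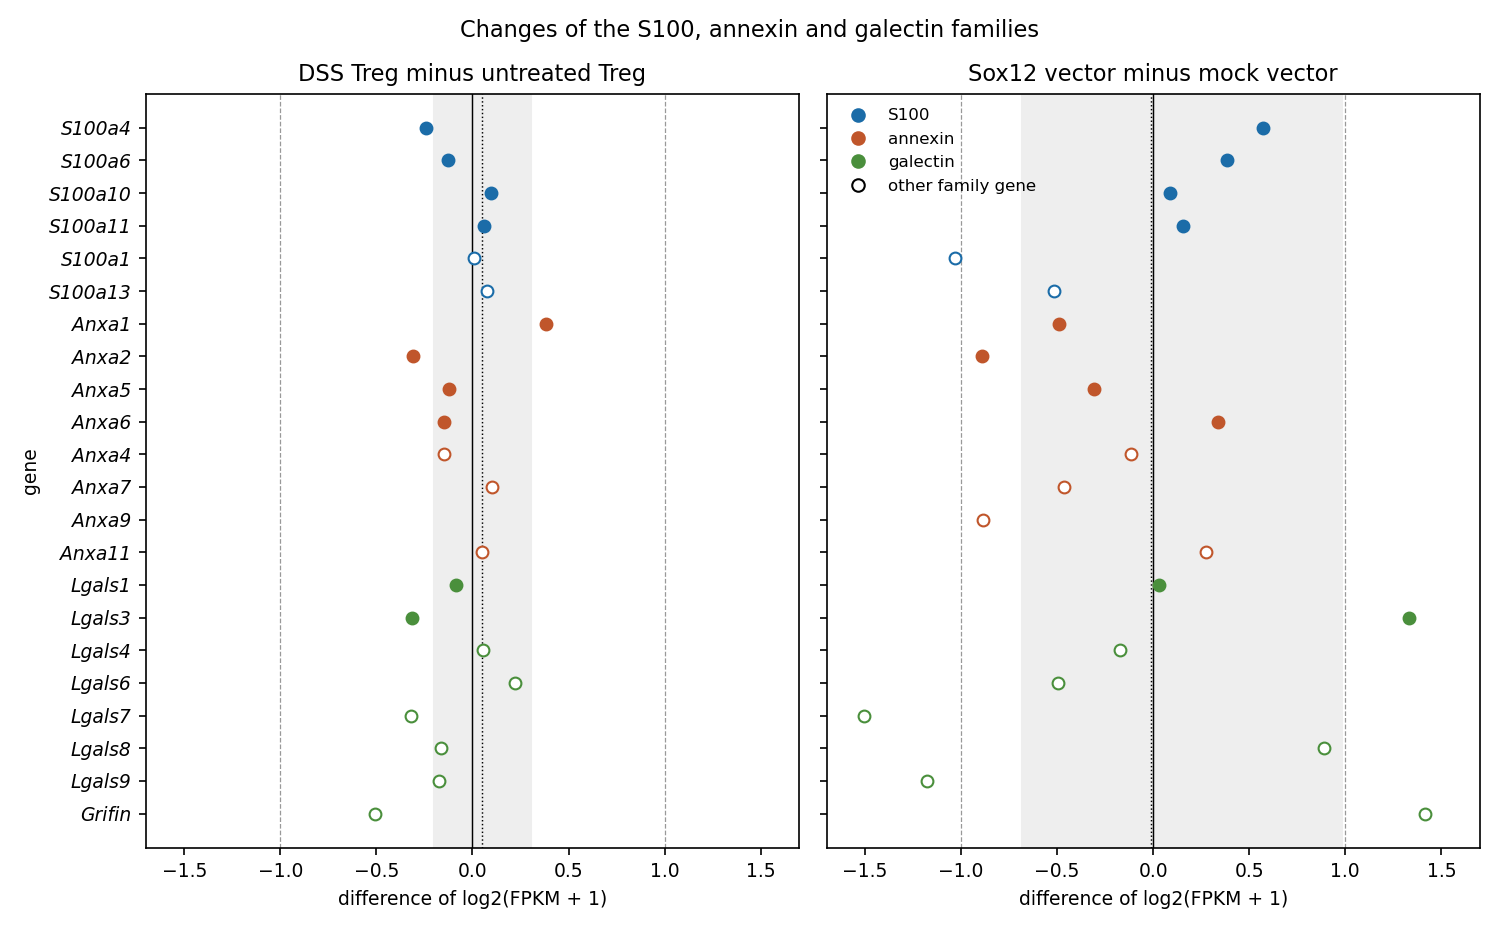
Difference of log2(FPKM + 1) for every S100, annexin and galectin family gene past the filter, with DSS minus untreated Treg on the left and Sox12 minus mock vector on the right, filled points for the 10 genes and open points for the other genes of the families. Grey bands span the 5th to the 95th percentile of all genes (-0.20 to 0.31 and -0.68 to 0.98), dotted lines mark the median of all genes and dashed lines the size rule, which Lgals3 passes on the right.

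The experiments share no library, and the directions of the 10 genes can be set side by side. Higher in both were S100a10 and S100a11, and lower in both were Anxa2 and Anxa5, 2 of 10 each way. The other 6 differed in direction: S100a4, S100a6, Anxa6, Lgals1 and Lgals3 were lower in DSS Treg and higher with the Sox12 vector (Lgals1 not with equal 75th percentiles), and Anxa1 was the reverse. Of the 9958 genes past the filter in both tables, 32.7% were higher in both and 18.0% lower in both, 15.7% were lower in DSS Treg and higher with the Sox12 vector and 33.5% were the reverse. Whether the members differ from other genes in this was not tested.

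Levels were ordered alike in the libraries of an experiment. In DSS Treg the order was S100a10, Anxa6, Lgals1, S100a4, S100a11, Anxa5, S100a6, Anxa2, Lgals3 and Anxa1, and in untreated Treg Anxa2 and S100a6 were level at 38.8 FPKM with the rest in the same places. With the Sox12 vector the order was Lgals1, S100a10, S100a11, Anxa6, Anxa2, Lgals3, Anxa5, S100a4, S100a6 and Anxa1. With the mock vector Anxa2 stood in the third place, above S100a11 and Anxa6, and Anxa5 stood above Lgals3. With no replicates, whether neighbours in an order differ beyond their spread is not known.

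**Figure D3:**
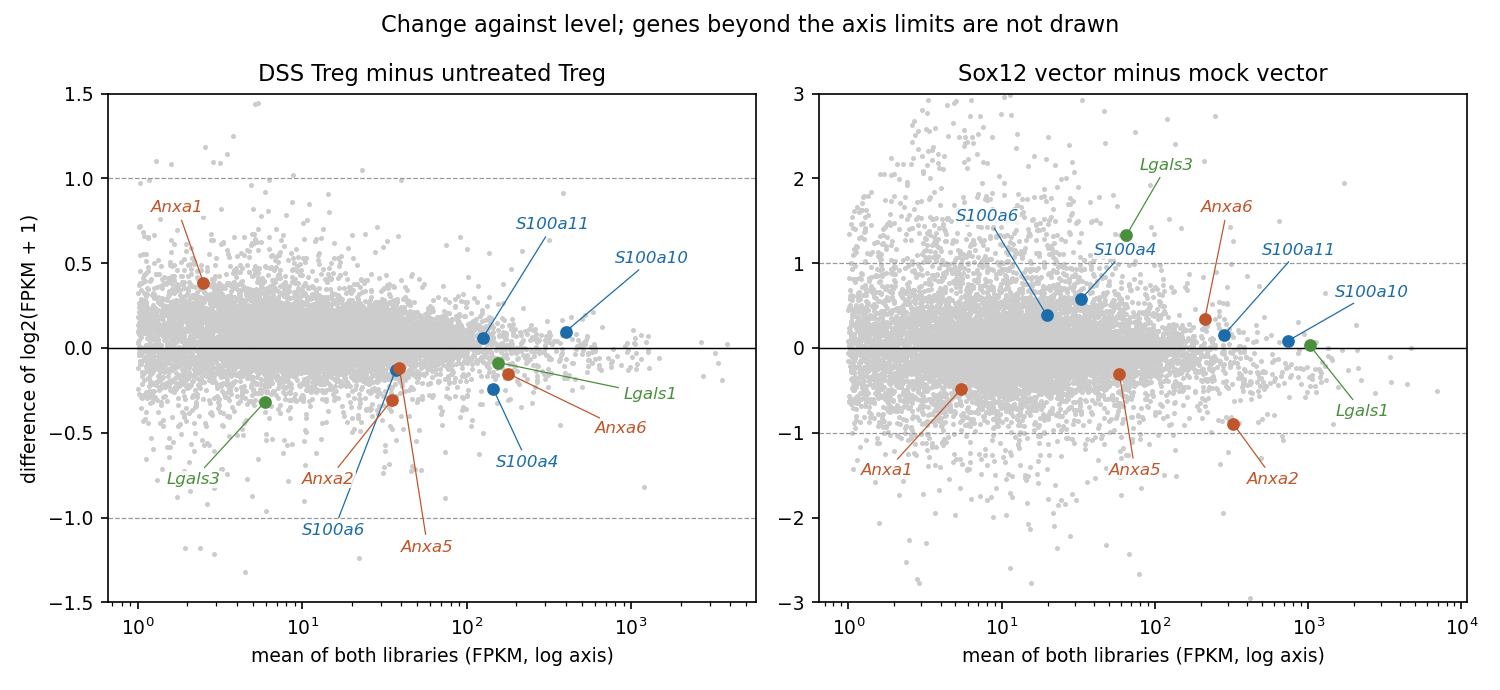
Difference of log2(FPKM + 1) against the mean level of both libraries in FPKM (log axis), with DSS minus untreated Treg on the left and Sox12 minus mock vector on the right; grey points are all genes past the filter and coloured points the 10 genes (blue S100, orange annexin, green galectin). With the vectors Lgals3 (1.33) lies above the upper dashed line of the size rule, and Anxa2 (-0.89) just above the lower one; genes beyond the axis limits are not drawn.

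The remaining S100, annexin and galectin genes of the mouse were looked at as a list of 30. In DSS and untreated Treg, 13 had a row and 11 passed the filter, of which 6 were higher and 5 lower (median change 0.01), but 4 were higher and 7 lower when the median of all genes was set to 0. None reached 1.5 times, where 0.872% of all genes were higher and 0.446% lower. Lgals9, a galectin with a pair of binding domains and a ligand of the receptor TIM-3, had 79.8 FPKM in DSS Treg and 90.4 FPKM in untreated Treg. S100a13 had 45.5 FPKM in DSS Treg and 43.2 FPKM in untreated Treg, and Anxa11 had 43.3 FPKM in DSS Treg and 41.9 FPKM in untreated Treg. The other annexins and S100a1 lay lower and differed as little. Anxa7 had 19.4 FPKM in DSS Treg and 18.0 FPKM in untreated Treg, and Anxa4 had 2.77 FPKM in DSS Treg and 3.18 FPKM in untreated Treg. S100a1 had 3.65 FPKM in DSS Treg and 3.62 FPKM in untreated Treg.

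Lgals8 had 19.7 FPKM in DSS Treg and 22.2 FPKM in untreated Treg, and Lgals4 had 6.28 FPKM in DSS Treg and 6.005 FPKM in untreated Treg. The other galectins were close to the filter. Lgals6 had 1.56 FPKM in DSS Treg and 1.19 FPKM in untreated Treg, and Lgals7 had 0.974 FPKM in DSS Treg and 1.46 FPKM in untreated Treg. Grifin, a galectin-related lens protein, had 1.33 FPKM in DSS Treg and 2.32 FPKM in untreated Treg. Lgals6 is a close copy of Lgals4, and reads may be split between them. The neutrophil genes S100a8, with 0.678 FPKM in DSS Treg and 1.08 FPKM in untreated Treg, and S100a9, with 0.449 FPKM in DSS Treg and 1.19 FPKM in untreated Treg, were below the filter and are named after their values were seen.

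With the vectors, 29 of the 30 had a row, 7 were at 0 in both libraries and 12 passed the filter. Of these, 3 were higher and 9 lower with the Sox12 vector, with a median change of -0.48, the opposite lean from the 10 genes above. The same counts were found under the 3 other scalings of the libraries. At 2 times, 1 was higher and 3 were lower, against 4.85% and 1.91% of all genes.

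Lgals9 had 37.5 FPKM with the Sox12 vector and 86.3 FPKM with the mock vector (change -1.18), so that it stood at 0.4001 times the level of Lgals3 with the Sox12 vector and at 2.35 times with the mock vector. Lgals7 had 6.93 FPKM with the Sox12 vector and 21.5 FPKM with the mock vector (change -1.503). Lgals8, a further galectin with paired domains, had 15.7 FPKM with the Sox12 vector and 8.003 FPKM with the mock vector (change 0.89). Grifin had 4.25 FPKM with the Sox12 vector and 0.970 FPKM with the mock vector (change 1.41). The galectins thus differed in both directions, with Lgals3, Lgals8 and Grifin higher and Lgals7 and Lgals9 lower. Lgals4 (3.74 FPKM with the Sox12 vector and 4.35 FPKM with the mock vector) and Lgals6 (1.34 FPKM with the Sox12 vector and 2.29 FPKM with the mock vector) had changes of -0.17 and -0.49.

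Of the S100 genes outside the 10, S100a1 had 11.4 FPKM with the Sox12 vector and 24.4 FPKM with the mock vector (change -1.03), and S100a13, which takes part in the release of FGF1, had 47.1 FPKM with the Sox12 vector and 67.8 FPKM with the mock vector (change -0.52). Of the 17 S100 genes listed here 14 lie on chromosome 3, with S100a1 next to S100a13 and S100a5 between S100a4 and S100a6. The neighbours below were picked after their values were seen. S100a5 had 0 FPKM with the Sox12 vector and 0.0950 FPKM with the mock vector, between S100a4 and S100a6 that were both higher with the Sox12 vector. S100a8, S100a9, S100a7a and S100a16 of the same cluster were at 0 in both vector libraries. S100a11 and S100a10 adjoin each other further along the chromosome.

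Of the annexins outside the 10, Anxa9 had 1.15 FPKM with the Sox12 vector and 2.98 FPKM with the mock vector (change -0.89), and Anxa7 had 28.9 FPKM with the Sox12 vector and 40.2 FPKM with the mock vector (change -0.46). Anxa11 had 31.2 FPKM with the Sox12 vector and 25.6 FPKM with the mock vector (change 0.28), and Anxa4 had 13.1 FPKM with the Sox12 vector and 14.3 FPKM with the mock vector (change -0.12). Anxa11 and Anxa6 were the annexins past the filter that were higher.

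A list of 21 partners, receptors and glycan-modifying enzymes of these families was followed in the same way. In Treg, 16 passed the filter, 8 higher and 8 lower with a median change of -0.00, and 4 higher and 12 lower when the median of all genes was set to 0. None passed 1.5 times, where 0.872% of all genes were higher and 0.446% lower. The 2 most abundant were Ptprc, which encodes the galectin-1 receptor CD45, with 296 FPKM in DSS Treg and 330 FPKM in untreated Treg, and Myh9, the myosin heavy chain bound by S100A4, with 253 FPKM in DSS Treg and 284 FPKM in untreated Treg.

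With the vectors, 17 partners passed the filter, 9 higher and 8 lower with a median change of 0.01, which turned to -0.02 with the 75th percentiles made equal. At 2 times, 3 were higher and 1 lower, against 4.85% and 1.91% of all genes. Havcr2, the galectin-9 receptor TIM-3, had 21.2 FPKM with the Sox12 vector and 6.63 FPKM with the mock vector (change 1.54), beside the lower level of Lgals9. Cd7, a galectin-1 receptor, had 1.95 FPKM with the Sox12 vector and 0.285 FPKM with the mock vector (change 1.1997). Ager, the receptor RAGE for extracellular S100 proteins, had 4.64 FPKM with the Sox12 vector and 1.75 FPKM with the mock vector (change 1.04). Ahnak, a giant scaffold protein held at the membrane by S100A10 and annexin A2, had 13.8 FPKM with the Sox12 vector and 34.9 FPKM with the mock vector (change -1.27). Ahnak and Anxa2 were thus both lower with the Sox12 vector.

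A few more partners were picked after their values were seen. Lgals3bp, a secreted glycoprotein that binds galectin-3, had 36.3 FPKM with the Sox12 vector and 72.0 FPKM with the mock vector. Lag3, an inhibitory receptor that binds galectin-3, had 31.1 FPKM with the Sox12 vector and 17.5 FPKM with the mock vector. Spn, which encodes CD43, had 103 FPKM with the Sox12 vector and 163 FPKM with the mock vector, and Ptprc had 230 FPKM with the Sox12 vector and 227 FPKM with the mock vector. The annexin A1 receptor genes Fpr1 and Fpr2 were at 0 in both vector libraries.

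Because the 10 genes are known from effector and memory T cells, 18 other genes of that state were set beside them. In Treg all 18 passed the filter, 9 higher and 9 lower with a median change of -0.00, and 6 higher and 12 lower when the median of all genes was set to 0. The most abundant were Lsp1, a leukocyte actin-binding protein, with 344 FPKM in DSS Treg and 334 FPKM in untreated Treg, and vimentin (Vim) with 257 FPKM in DSS Treg and 277 FPKM in untreated Treg.

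With the vectors 17 passed the filter, 5 higher and 12 lower with a median change of -0.24, which stayed negative under the 3 other scalings. Of all genes 48.9% were higher and 51.1% lower. The 4 S100 members were higher where 12 of these 17 genes were lower, but S100a10 and S100a11 by only 0.09 and 0.16. Whether the members differ from this list was not tested. Of the other members, Anxa6, Lgals3 and (by 0.03) Lgals1 were also higher, while Anxa1, Anxa2 and Anxa5 were lower like most of the list. Lmna, the nuclear lamin A gene, had 28.3 FPKM with the Sox12 vector and 10.5 FPKM with the mock vector (change 1.35), and the chemokine Ccl5 had 28.3 FPKM with the Sox12 vector and 12.0 FPKM with the mock vector (change 1.17). Cd44, the adhesion receptor that defines memory T cells in the mouse, had 53.0 FPKM with the Sox12 vector and 108 FPKM with the mock vector (change -1.01).

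**Figure D4:**
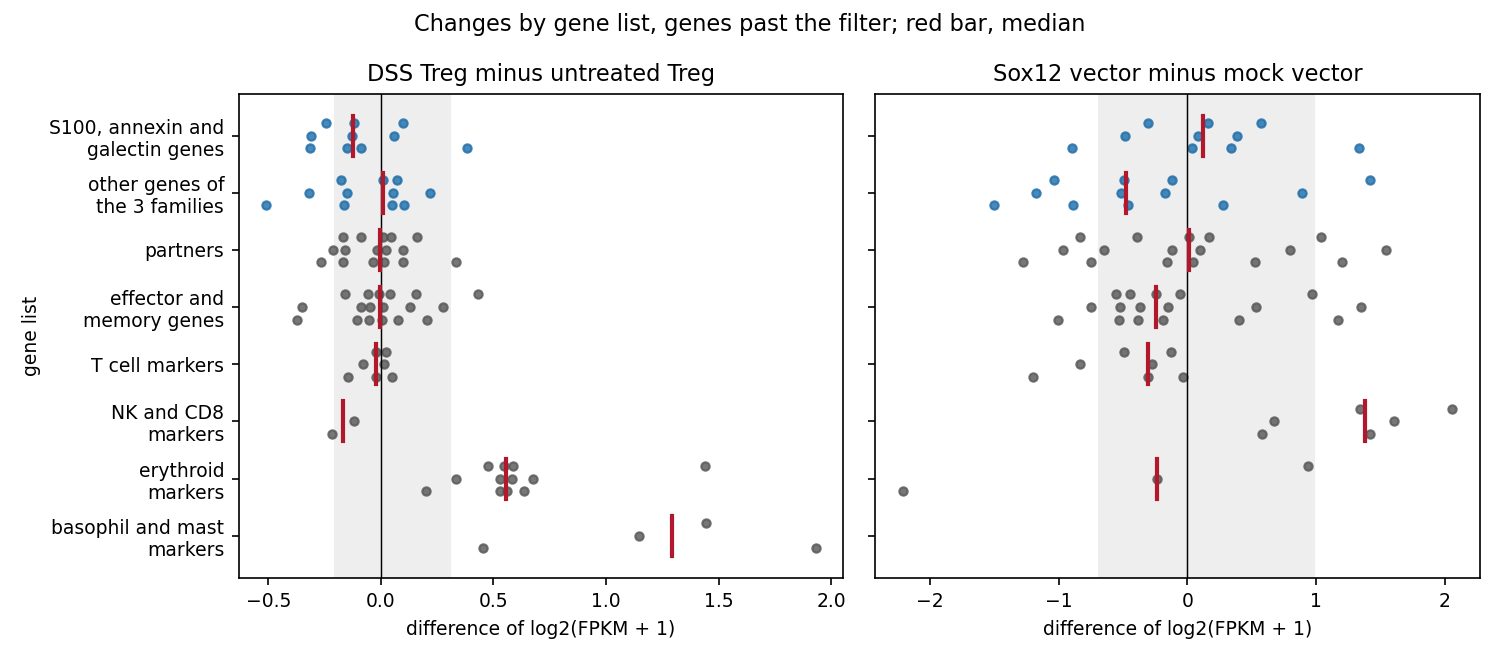
Difference of log2(FPKM + 1) of each gene past the filter in 8 lists, 1 point per gene, with DSS minus untreated Treg on the left and Sox12 minus mock vector on the right; red bars are list medians, grey bands the 5th to the 95th percentile of all genes, and height within a row has no meaning. Of the 10 genes, Anxa1, S100a4, Anxa2 and Lgals3 lie outside the band in the DSS panel, and Lgals3 and Anxa2 in the vector panel. Erythroid and basophil markers lie to the right in the DSS panel and NK and CD8 markers to the right in the vector panel.

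Some markers of other cell types differed between the libraries of each experiment, and others differed little. In the DSS table erythroid markers were higher in 12 of 12 cases, with summed levels of 852 FPKM in DSS Treg and 567 FPKM in untreated Treg. Of 6 basophil and mast cell markers 4 passed the filter, all higher, and the 2 below it, Fcer1a and Ms4a2, were also higher (summed over the 6, 29.9 FPKM in DSS Treg and 8.20 FPKM in untreated Treg), and 3 of 10 neutrophil and precursor markers had a row, all higher (28.1 FPKM in DSS Treg and 18.0 FPKM in untreated Treg). Those 3 were Elane, Mpo and Prtn3. Annexin A1, which myeloid cells express, was higher beside these markers. The neutrophil genes S100a8 and S100a9, both below the filter, were lower. Lgals3, Lgals1 and Anxa2, which macrophages also express, were lower too. Of 10 macrophage and monocyte markers 4 had a row, 2 higher (Cd68 and Cybb) and 2 lower (Lyz2 and Mpeg1), with sums of 18.0 FPKM in DSS Treg and 19.2 FPKM in untreated Treg. The 5 Treg markers summed to 503 FPKM in DSS Treg and 499 FPKM in untreated Treg. B cell markers (2 of 6 with a row) summed to 9.15 FPKM in DSS Treg and 8.67 FPKM in untreated Treg, and NK and CD8 markers (2 of 6) to 21.4 FPKM in DSS Treg and 24.7 FPKM in untreated Treg. The 1 platelet marker with a row had 1.40 FPKM in DSS Treg and 0.878 FPKM in untreated Treg, and 0 of 4 fibroblast markers had a row. The part of these cells in the values of the 10 genes was not tested.

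In the vector table NK and CD8 markers were higher in 6 of 6 cases. They summed to 256 FPKM with the Sox12 vector and 93.8 FPKM with the mock vector. Nkg7 alone made up 215 FPKM of the sum with the Sox12 vector and 80.002 FPKM of that with the mock vector. T cell markers were lower in 7 of 7 cases (6 of 7 with equal totals without the 20 highest genes). The part of the NK, CD8 and T cell markers in the differences of Lgals3 and the S100 genes was not tested. Macrophages and fibroblasts also express Lgals3, Lgals1 and Anxa2. The 9 macrophage and monocyte markers with a row summed to 3.93 FPKM with the Sox12 vector and 3.48 FPKM with the mock vector, of which Cd68, the 1 marker past the filter, made up 3.24 FPKM with the Sox12 vector and 3.04 FPKM with the mock vector. Csf1r and Fcgr1 were at 0 in both. The 4 fibroblast markers, none past the filter, summed to 0.493 FPKM with the Sox12 vector and 0.293 FPKM with the mock vector, with Col3a1 at 0 in both. The part of such cells in the values of the 10 genes was not tested. Erythroid markers summed to 18.9 FPKM with the Sox12 vector and 53.7 FPKM with the mock vector. Of these sums Hbb-b1 alone made up 9.27 FPKM with the Sox12 vector and 46.6 FPKM with the mock vector. Without the filter 5 erythroid markers were higher and 5 lower. Treg markers summed to 1051 FPKM with the Sox12 vector and 1169 FPKM with the mock vector. Neutrophil, basophil, B cell and platelet markers summed to under 3 FPKM each in both vector libraries.

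The genes nearest to Lgals3 in their pair of changes, among the 7320 genes averaging 5 FPKM or more in both tables, were Dzip1 (distance 0.08) and Zfp53 (distance 0.10). The distance is Euclidean over 2 changes from 4 libraries. Dzip1 had changes of -0.28 in Treg and 1.26 with the vectors, and Zfp53 of -0.40 and 1.27, against -0.32 and 1.33 for Lgals3. With the Sox12 vector Dzip1 (7.55 FPKM) and Zfp53 (20.8 FPKM) were far less abundant than Lgals3. In Treg both were more abundant than Lgals3. Dzip1 had 9.04 FPKM in DSS Treg and 11.2 FPKM in untreated Treg, and Zfp53 had 15.4 FPKM in DSS Treg and 20.6 FPKM in untreated Treg.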

How the data were processed

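RNA of 4 mouse T cell libraries was extracted with a PureLink kit and sequenced from SureSelect strand-specific libraries, per the labels' protocols. Cufflinks and build mm9 are named, without versions, in the submitters' processing notes. The aligner, annotation and use of strand are not given in the sources that were used. The deposited DSS table holds FPKM and a fold change, the ratio of the 2 columns (largest relative difference on recomputing 0.000449). It lists genes above 1 FPKM in at least 1 library. The deposited vector table holds log2(FPKM + 1) and a log2 difference, and was turned back to FPKM here. Each library was grouped by its title.

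Rows with a date in place of a symbol (16 and 25) were left out. The filter kept genes averaging 1 FPKM or more over both libraries of an experiment, and changes used a pseudocount of 1. No test was run, since each group had 1 library. The 10 genes and all lists were chosen with earlier results of these data known. Other family genes were named from a mean of 1 FPKM up or a change of at least 1 in size, and partner and effector genes when past 2 times, or else the 2 most abundant.

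Depth in the vector table came from its low values: among 4559 genes with a single transcript in GENCODE M21, the inverse of FPKM times length, which gives the depth where a gene has 1 fragment, peaked at a value shared by 28 (Sox12) and 25 (mock) genes. The depth of the DSS libraries is unknown. The counts ignore fragment size, which matters most for the short S100 transcripts. In GENCODE M21 S100a4 overlaps the predicted coding gene Gm42674 on the same strand, so use of strand would not separate their reads. On the opposite strand, Anxa1, Anxa2, Anxa4, Anxa11 and Lgals7 overlap non-coding genes, and Anxa9 and Lgals8 coding genes. Reads of these opposite-strand pairs cannot be told apart if strand was not used. Python 3.11.15, numpy 2.4.6 and pandas 2.3.3 were used.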

Additional observations from a re-analysis of the deposited data

How the results depend on the processing

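Each value was recomputed with a pseudocount of 0.1 or 5, with no filter or one at 5 FPKM, with the median change of all genes set to 0, with equal 75th percentiles, and with totals made equal after leaving out the 20 highest genes. The number of members past the size rule was 0 for DSS and 1 for the Sox12 vector under all 7. The median change of the members in DSS Treg (-0.12) was -0.13 and -0.11 with pseudocounts of 0.1 and 5, -0.13 with the filter at 5 FPKM (9 members, without Anxa1), -0.17 with the median of all genes set to 0, -0.16 with equal 75th percentiles and -0.15 with equal totals. With the Sox12 vector (0.12) it was 0.13, 0.088 and 0.18 under the last 3. The sign of a member changed once, for Lgals1 with equal 75th percentiles. Other changes that moved by over 1.5 times were those of Anxa1 (given above), of Lgals3 in DSS Treg (-0.20 with a pseudocount of 5), and, under the scalings, of S100a10, S100a11 and Lgals1, all under 0.15 in size. No paired analysis was possible because each group had 1 library, and for the same reason no library could be left out. The limits are the single libraries, the unknown depth of the DSS table and the low level of Anxa1.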
